A study of Mus musculus with 12 samples.

Results

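The inflammasome and pyroptosis genes described here are 8 genes taken by symbol: the sensors Nlrp3, Nlrc4 and Aim2, the NLRP3 partner kinase Nek7, the adaptor Pycard, the caspases Casp1 and Casp4, and the pore former Gsdmd. All 8 were found among the 24445 gene symbols of the count files, and all 8 passed the filter on low counts that left 14608 genes for testing. Their RNA was measured in macrophages (Mφ) sorted from the hearts of adult male mice labelled C57BL6/J, aged 9 to 20 weeks. The ages cover all experiments of the study. The 4 control (Ct) libraries came from mice with a saline pump. The study's methods give vehicle pumps the same infusion times as isoproterenol pumps, and which of them applies to these mice is not stated. The 4 ECH (early concentric hypertrophy) libraries came from mice given isoproterenol, which activates β-adrenergic receptors, by pump for 14 days, and the 4 HF (heart failure) libraries from mice given it for 28 days, in either case at 30 mg/kg/day. According to the study's methods, hearts could differ somewhat in how fast or how far they remodelled under isoproterenol. Cells were enriched with CD45 beads and sorted as live CD11b+ cells carrying CD14 and CD64, and each library is taken as 1 mouse, the unit that the study's legends give for its RNA-seq.

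Inflammasomes are protein complexes that form in the cytosol of macrophages and other cells when a sensor detects microbial products or cell damage. NLRP3 responds to potassium efflux and lysosomal damage with the help of NEK7, AIM2 binds cytosolic DNA, and NLRC4 acts with NAIP proteins on bacterial flagellin and secretion system proteins. The adaptor ASC, encoded by Pycard, links sensors to caspase-1, which matures the cytokines IL-1β and IL-18 and cleaves gasdermin D, whose fragment forms pores in the plasma membrane. The mouse gene Casp4 encodes caspase-11, which senses lipopolysaccharide directly and also cleaves gasdermin D. In the heart the pathway is best known from infarction and pressure overload. Cleavage, assembly and secretion are protein events, so that RNA levels give the supply of components and not the activity of the pathway.

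None of the 8 genes passed the test in any comparison (adjusted p under 0.05 and a fold of at least 2, edgeR). This is to be read against a low rate of calls over all genes, 0.356% of 14608 genes in ECH versus Ct, 0.377% in HF versus Ct and 0% in HF versus ECH. At an unadjusted p under 0.05, the genes past the threshold were Casp4 in ECH versus Ct and Nlrp3, Aim2 and Casp4 in HF versus Ct, all lower than in Ct, and 0 genes in HF versus ECH. The shares of all genes past that threshold were 11.9%, 16.1% and 7.98%, and 5.89% and 8.72% of all genes passed it on the lower side in ECH and HF versus Ct. The 1 of 8 genes in ECH versus Ct is thus near the rate of all genes, and the 3 of 8 in HF versus Ct, above it, are a count over a short list. The median log2 fold change of the 8 genes was -0.15 in ECH versus Ct, -0.11 in HF versus Ct and -0.08 in HF versus ECH, beside 0.01, -0.01 and -0.02 over all genes tested. DESeq2, limma-voom and the likelihood ratio test of edgeR also called 0 of the 8 genes in each comparison, where DESeq2 called 1.7%, 2.3% and 0.322% of all genes. In such a bulk measurement, fewer cells of a type and less RNA per cell cannot be told apart.

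**Figure D1:**
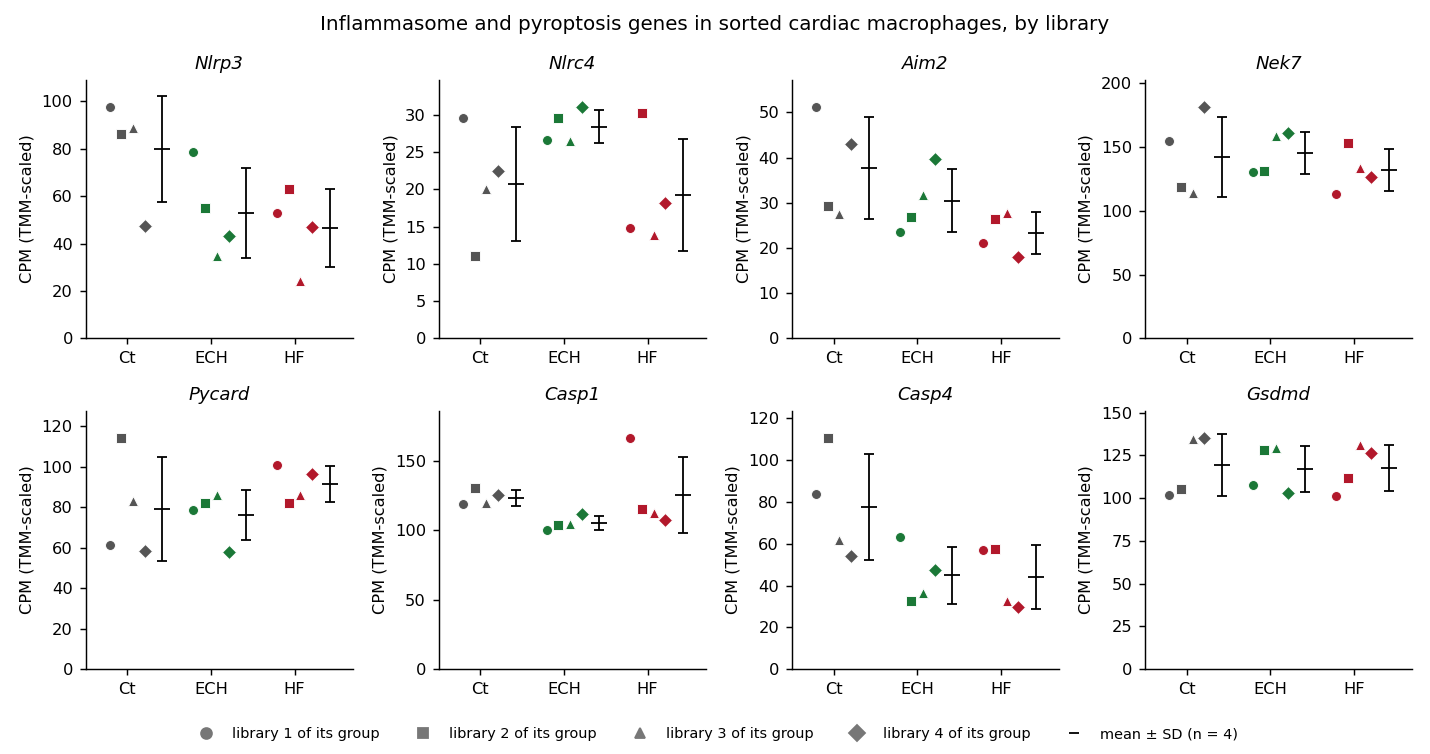
Level of each gene in CPM (counts per 1000000, scaled by TMM) in the 12 libraries, with 1 panel per gene, the group on the x axis, 1 symbol per library and a bar for the mean ± SD of 4 libraries. Casp4 and Nlrp3 are lower on average in ECH and HF than in Ct but overlap with it, whereas Gsdmd lies between 101 and 135 CPM in all groups.

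The 12 libraries held 88466559 to 111180291 counts, and each of the 8 genes rested on at least 946 counts in every library. The RNA was amplified before sequencing, and technical error was not separated from the spread between mice. The biological coefficient of variation of the model was 60.8%. The markers of the sort were present in all libraries, with 1713 to 2993 CPM of Cd14 and 71.5 to 182 CPM of Fcgr1, which encodes CD64, and the 8 macrophage markers summed to 8095 to 11586 CPM. Ct library 2 and HF library 1 stood apart, with 127 and 188 genes at 0 that had at least 100 counts in each of the other libraries of their group, against 1 to 7 such genes in the other 10 libraries. The library numbers in the labels (3 to 6 in Ct, 1, 2, 5 and 6 in ECH, 1 to 4 in HF) would form 2 sets, ECH libraries 1 and 2 with Ct and ECH libraries 3 and 4 with HF. No source states these sets. HF versus Ct lies wholly across them. With the set as a term in the fit, its value rests on the split of the ECH group, with 2 libraries in each set. A further code in the sample titles pairs Ct libraries 1 and 2 and Ct libraries 3 and 4. It also pairs ECH libraries 3 and 4 and HF libraries 1 and 2. No source states its meaning, no pair spans 2 groups, and it was not a term in any fit.

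Among the sensors, Nlrp3 had 97.4, 86.2, 88.8 and 47.3 CPM in Ct libraries 1 to 4, 78.7, 54.9, 34.9 and 43.1 CPM in ECH, and 52.9, 62.9, 24.2 and 46.8 CPM in HF. The 3 highest libraries of Nlrp3 were Ct libraries, and Ct library 4 lay within the range of both other groups. The log2 fold change of Nlrp3 was -0.59 ± 0.31 (SE, adjusted p = 0.489) in ECH versus Ct, -0.77 ± 0.32 (adjusted p = 0.261) in HF versus Ct and -0.18 ± 0.31 (adjusted p = 0.956) in HF versus ECH. The 95% interval of HF versus Ct, from -1.46 to -0.09, contains a 2-fold lower level of Nlrp3 and also almost no difference. Within the inferred library sets the difference was smaller, -0.26 (adjusted p = 0.959) for ECH libraries 1 and 2 against Ct, and HF was 0.26 above ECH libraries 3 and 4 (adjusted p = 0.767). With the set as a covariate the HF versus Ct value of Nlrp3 was 0.002.

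Aim2 had 51.1, 29.3, 27.5 and 43.0 CPM in Ct, 23.6, 26.9, 31.6 and 39.7 CPM in ECH and 21.2, 26.3, 27.8 and 17.9 CPM in HF. Ct libraries 1 and 4 were the highest of all, while Ct library 3 lay just below the highest HF library, so that the groups overlapped. Aim2 was -0.69 ± 0.24 (adjusted p = 0.199) in HF versus Ct, -0.31 ± 0.24 (adjusted p = 0.659) in ECH versus Ct and -0.39 ± 0.24 (adjusted p = 0.736) in HF versus ECH on the log2 scale. ECH versus Ct was -0.59 (adjusted p = 0.947) within the library set and -0.13 without Ct library 1. HF against ECH libraries 3 and 4 alone gave -0.61 (adjusted p = 0.158) for Aim2. With the set as a covariate the HF versus Ct value of Aim2 was larger in size, -1.19 (adjusted p = 0.152), and also did not pass.

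Nlrc4 was the least abundant of the 8 genes, and its mean was highest in ECH. It had 29.5, 11.003, 19.99 and 22.5 CPM in Ct, 26.6, 29.5, 26.5 and 31.0 CPM in ECH and 14.9, 30.2, 13.9 and 18.1 CPM in HF. The 4 ECH libraries lay close together (28.4 ± 2.23 CPM, SD, n = 4), and the wider Ct (20.8 ± 7.65 CPM) and HF groups (19.3 ± 7.52 CPM) each held a library inside their range. Neither ECH versus Ct (log2 fold change 0.45 ± 0.29, adjusted p = 0.597) nor HF versus ECH (-0.56 ± 0.30, adjusted p = 0.671) passed the test, and HF versus Ct was -0.11 ± 0.29 (adjusted p = 0.898). Leaving out Ct library 2, the lowest library for Nlrc4 and one of the pair that stood apart, together with HF library 1 lowered the ECH versus Ct value to 0.23.

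Nek7, which licenses NLRP3 after potassium efflux, had 155, 119, 114 and 181 CPM in Ct, 131, 131, 159 and 161 CPM in ECH and 113, 153, 134 and 127 CPM in HF. Ct held both the highest library and one of the lowest. The 95% interval of the log2 fold change of Nek7 ran from -0.32 to 0.38 in ECH versus Ct and from -0.46 to 0.24 in HF versus Ct, so that a 2-fold difference in either direction lay outside both.

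Pycard had 61.5, 114, 83.4 and 58.2 CPM in Ct, 78.5, 82.1, 86.3 and 58.1 CPM in ECH and 101, 82.0, 86.2 and 96.6 CPM in HF. The HF libraries were all at 82.0 CPM or more, whereas Ct spanned them from below and above. Pycard was -0.06 ± 0.20 (adjusted p = 0.944) in ECH versus Ct and 0.21 ± 0.20 (adjusted p = 0.674) in HF versus Ct. Leaving out 1 library moved the HF versus Ct value of Pycard to between 0.084 (without Ct library 4) and 0.43 (without Ct library 2). Of the 75-base stretches of annotated Pycard transcripts, 11.03% also occurred in the overlapping antisense gene Gm45205, and since no source states whether strand was used in counting, reads from this overlap could not be assigned with certainty.

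The caspase genes Casp1 and Casp4 are neighbours on chromosome 9. Casp1 spans chr9:5298517-5307265 and Casp4 chr9:5308828-5336783 on the plus strand of GRCm38 (mm10), with 1562 bases between them. No 75-base stretch of either gene's annotated transcripts occurred in the other or in any other gene, so that their reads should not mix. Their levels differed in pattern. Casp1 had 119, 131, 120 and 126 CPM in Ct, 100, 104, 105 and 112 CPM in ECH and 166, 115, 112 and 107 CPM in HF. All 4 ECH libraries were below all 4 Ct libraries, a separation that 3.64% of all genes tested showed in this direction. The difference in Casp1 was small, a log2 fold change of -0.23 ± 0.14 (adjusted p = 0.551), with a 95% interval from -0.53 to 0.07. HF versus Ct was 0.02 ± 0.14 (adjusted p = 0.964) and rested on HF library 1, without which it was -0.15 (adjusted p = 0.573).

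Casp4 had 83.7, 110, 61.7 and 54.1 CPM in Ct, 63.0, 32.7, 36.3 and 47.5 CPM in ECH and 57.2, 57.5, 32.4 and 29.6 CPM in HF. Of the 8 libraries of infused mice, 5 were below every Ct library, and ECH library 1 and HF libraries 1 and 2 lay within the Ct range. Casp4 showed the largest mean difference of the 8 genes in both comparisons with Ct, -0.79 ± 0.29 (adjusted p = 0.297) in ECH and -0.81 ± 0.29 (adjusted p = 0.215) in HF on the log2 scale. The HF and ECH means, 44.2 ± 15.2 and 44.9 ± 13.6 CPM, differed by -0.02 ± 0.29 (adjusted p = 0.998), with a 95% interval from -0.65 to 0.60. The highest Casp4 library, Ct library 2, is one of the pair that stood apart, and without this library and HF library 1 the values against Ct were -0.58 (adjusted p = 0.433) and -0.75 (adjusted p = 0.278). Within the inferred library sets, ECH libraries 1 and 2 were at -0.70 against Ct (adjusted p = 0.947). Both comparisons share the Ct libraries, so that their like values are not independent of each other.

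In ECH versus Ct, Casp4 and Nlrp3 had the largest mean differences, and Casp1, next to Casp4, had a smaller one in the same direction. The sequences before the start sites of Casp4, Casp1 and Nlrp3 are shown for this reason. They are the 250 bases before the start site in RefSeq (GRCm38.p6), 5′ to 3′ on the plus strand, and capitals mark every match to a loose form of the site bound by NF-κB (GGG, any 5 bases, CC) on either strand, with overlapping matches joined. The Casp4 stretch is chr9:5308599-5308848, the Casp1 stretch chr9:5298267-5298516 and the Nlrp3 stretch chr11:59541319-59541568.
Casp4: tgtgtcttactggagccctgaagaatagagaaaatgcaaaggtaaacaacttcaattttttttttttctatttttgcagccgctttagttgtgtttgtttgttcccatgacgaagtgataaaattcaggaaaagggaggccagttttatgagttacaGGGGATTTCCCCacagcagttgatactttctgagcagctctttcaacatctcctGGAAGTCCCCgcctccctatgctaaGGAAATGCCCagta
Casp1: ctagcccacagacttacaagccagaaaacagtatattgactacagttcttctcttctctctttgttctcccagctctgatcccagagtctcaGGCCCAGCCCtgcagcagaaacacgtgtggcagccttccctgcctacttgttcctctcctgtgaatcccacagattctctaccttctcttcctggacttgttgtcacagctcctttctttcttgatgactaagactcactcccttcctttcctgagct
Nlrp3: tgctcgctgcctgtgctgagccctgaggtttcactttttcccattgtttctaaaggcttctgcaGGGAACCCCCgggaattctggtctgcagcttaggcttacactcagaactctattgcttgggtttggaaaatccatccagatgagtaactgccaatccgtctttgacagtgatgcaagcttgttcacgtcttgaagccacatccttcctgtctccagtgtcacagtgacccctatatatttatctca
The Casp4 stretch holds the run GGGGATTTCCCC, in which overlapping matches lie on both strands, starting 93 bases before the start site, and further single matches at 39 and 14 bases. Casp1 holds 1 match at 158 bases, and Nlrp3 holds GGGAACCCCC, which matches on both strands, at 186 bases. The loose form is common and was found in 50.8% of 32851 promoter windows of 300 bases (250 before to 50 after the start), so that its presence distinguishes little. The whole run reads differently on the other strand and was searched on both only after it had been seen. It occurred in the windows of 2 genes, Casp4 (both of its RefSeq windows) and Olfm4. Casp4 is among them by construction, since the run was taken from its window. No rate was computed for other runs of that length. The core of interferon response elements (GAAA, any 2 bases, GAAA) and TGACGTCA, the cyclic AMP response element that lies downstream of β-adrenergic receptors in many cells, were found in 3.44% and 1.79% of all windows, on either strand, and in 0 of the 9 windows that RefSeq gives for 7 of the 8 genes. Outside these stretches the loose NF-κB form was also found before Nek7, with 3 matches, and in a second Nlrp3 window, and was not found in the windows of Aim2, Nlrc4 and Pycard. These are matches of letters and were not tested for binding.

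Gsdmd, the executor of pyroptosis, had 102, 105, 135 and 135 CPM in Ct, 108, 128, 129 and 103 CPM in ECH and 101, 112, 131 and 127 CPM in HF. The groups covered the same range. The log2 fold change was -0.03 ± 0.14 in ECH versus Ct, -0.02 ± 0.14 in HF versus Ct and 0.01 ± 0.14 in HF versus ECH, each with an adjusted p of 0.966 or more. The 95% interval against Ct ran from -0.33 to 0.28 in ECH and from -0.33 to 0.29 in HF, the narrowest intervals of the 8 genes beside those of Casp1.

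**Figure D2:**
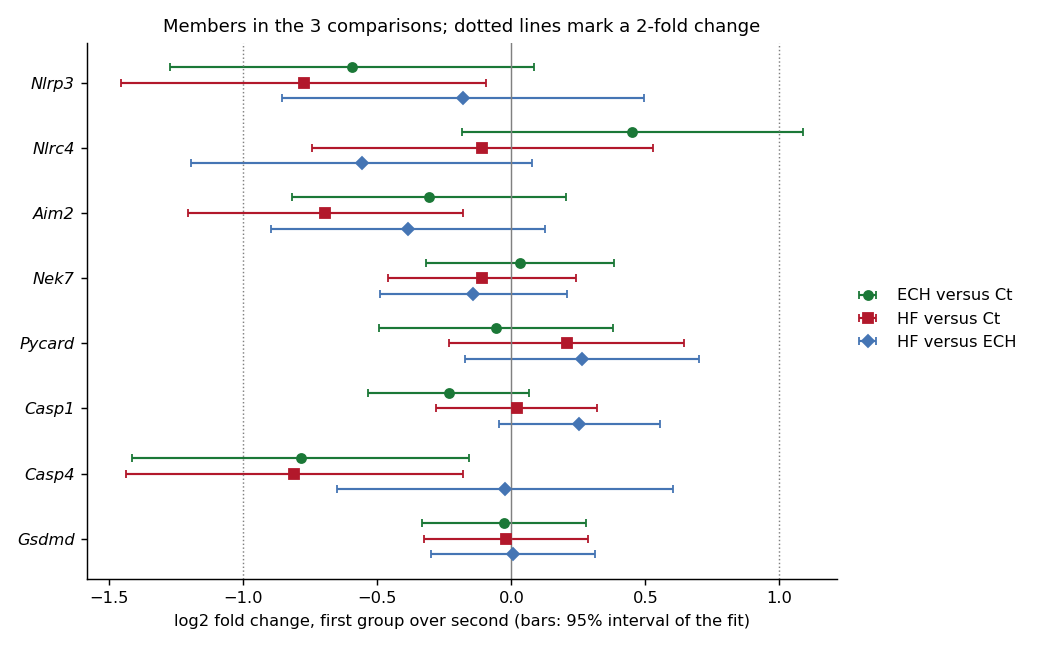
Log2 fold change (x axis, points) with its 95% interval (bars) from the edgeR fit for each of the 8 genes (y axis) in ECH versus Ct, HF versus Ct and HF versus ECH. The intervals of Casp4 against Ct and of Nlrp3 and Aim2 in HF versus Ct lie below 0 before adjustment over all genes, and those of Gsdmd, Nek7 and Pycard lie within a 2-fold change on either side.

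Levels can be set beside each other between genes only per length. Per kilobase of the longest annotated transcript, the mean over the 12 libraries was highest for Casp1 (78.9 CPM per kilobase), followed by Gsdmd (65.9), Casp4 (38.7), Nek7 (26.6), Pycard (21.7), Nlrp3 (14.9), Aim2 (10.7) and Nlrc4 (4.82). Casp1 exceeded Gsdmd in 10 of 12 libraries and Aim2 exceeded Nlrc4 in 12 of 12, whereas Casp4 and Nek7 as well as Nek7 and Pycard kept their order in only 8 of 12. Between Casp1 and Gsdmd the ranges over libraries, 67.0 to 111 and 56.5 to 75.4 CPM per kilobase, overlapped. The order depends on the length used. Per kilobase of coding sequence, Nek7 (154) and Pycard (142), whose longest transcripts of 5258 and 3800 bases carry only 906 and 579 coding bases, came before Casp1 (97.9) and Gsdmd (80.8). On this scale Nek7 had the higher mean in Ct (157 against 137) and ECH (160.4 against 132), and Pycard in HF (158 against 145, higher in 3 of 4 libraries), with overlapping ranges in each group. On either scale the means of the sensors Nlrp3, Aim2 and Nlrc4 were the lowest, and those of Casp1 and Gsdmd exceeded the mean of each sensor.

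Over the 12 libraries, the genes with the most similar pattern among 9871 genes with a mean of at least 5 CPM were picked for the highest Pearson r of log2 CPM, so no p is given for them. For Casp4 they were Eif1 (r = 0.958), Klf4 (r = 0.957) and Pnrc1 (r = 0.954). For Nlrp3 they were Zc3h12a (r = 0.911), which encodes an RNase that degrades inflammatory mRNAs, the adhesion molecule gene Icam1 (r = 0.908) and Ccnl1 (r = 0.908). Pycard was most like Cyba (r = 0.934), which encodes a subunit of the phagocyte NADPH oxidase, Chmp2a (r = 0.924) and Chchd3 (r = 0.921), and Nlrc4 was most like Ripk1 (r = 0.937), Cog3 (r = 0.924) and Arel1 (r = 0.920). Aim2 was most like Dyrk2 (r = 0.944), Gm15800 (r = 0.936) and 2610008E11Rik (r = 0.913). Nek7 was most like Nckap5l (r = 0.910), Atg2a (r = 0.892) and Champ1 (r = 0.891). Lower values were reached for Casp1, with Wdr5b (r = 0.882), Ogfod3 (r = 0.863) and Gm5617 (r = 0.856), and for Gsdmd, whose most similar genes included Ankfy1 (r = 0.835) and Nono (r = 0.823). These values share libraries, depth and group differences, and with the group means removed r was 0.932 for Casp4 with Eif1 and 0.880 for Nlrp3 with Zc3h12a.

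In addition, 12 early response genes, among them Fos, Jun, Egr1, Atf3 and Hspa1a, were summed per library. They were chosen after the values had been seen, so that their likeness to Casp4 and Nlrp3 was in part fixed by the choice and supports nothing. Early response genes are induced within minutes by many stimuli and also by the enzymatic digestion of tissue. The sum was 40970 to 54017 CPM in Ct, 18420 to 41913 CPM in ECH and 20173 to 34634 CPM in HF. All 12 genes were lower on average than in Ct in both comparisons, 7 of them at an unadjusted p under 0.05 (5.89% of all genes in ECH and 8.72% in HF on this side), and the lowest adjusted p was 0.157 in ECH and 0.125 in HF. ECH library 1, the only ECH library within the Ct range of this sum, was also the ECH library with the most Nlrp3 and Casp4, and HF libraries 1 and 2 had the highest sums and the most Nlrp3 and Casp4 of the HF group. Ct library 4 had the lowest sum of its group (40970 CPM) and the lowest Nlrp3 and Casp4. The order did not hold throughout. Ct library 3, with a sum of 41072 CPM, had 88.8 CPM of Nlrp3, against 47.3 CPM in Ct library 4. The highest Casp4 was in Ct library 2 and not in Ct library 1, which had the highest sum. ECH library 2 had the lowest Casp4 of its group but not the lowest sum. The part of these genes in the differences of Nlrp3 and Casp4 was not tested.

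**Figure D3:**
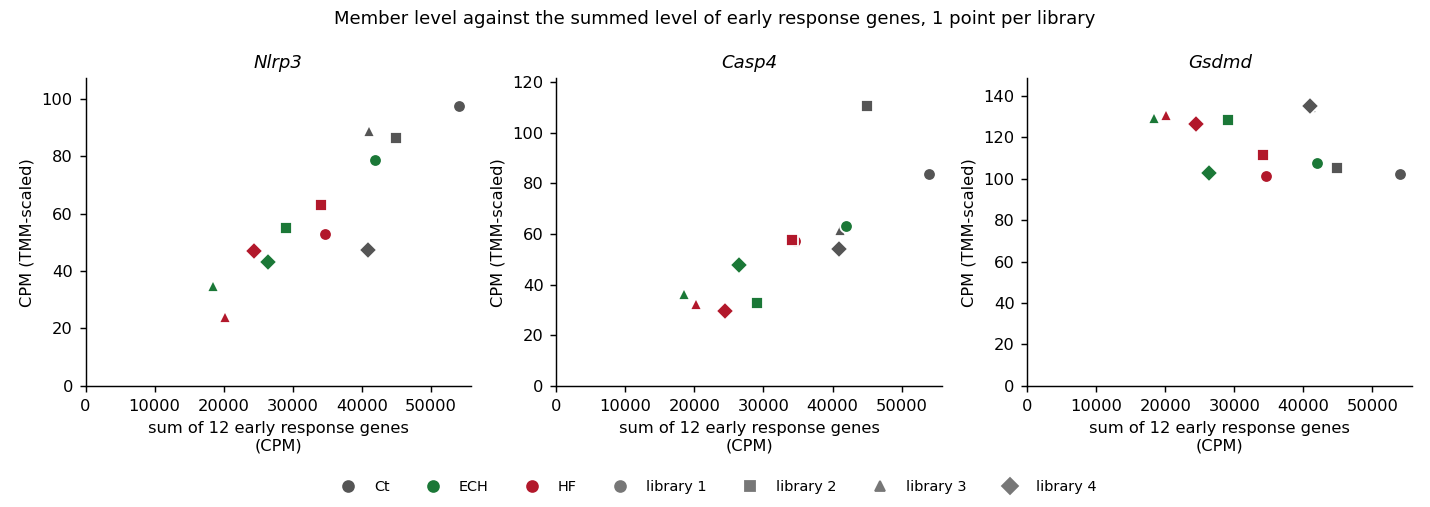
Level of Nlrp3, Casp4 and Gsdmd (y axis, CPM) against the summed level of 12 early response genes (x axis, CPM), with 1 point per library, colour for the group and shape for the library number. ECH library 1 and HF libraries 1 and 2, with the highest sums of their groups, also had the most Nlrp3 and Casp4 of them. In Ct, the library with the highest sum had the most Nlrp3 but not the most Casp4. Gsdmd stayed between 101 and 135 CPM.

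Markers of other cells also differed between groups. The 4 B cell markers summed to 96.1 to 446 CPM in Ct and to 34.2 to 79.5 CPM in all 8 libraries of infused mice, and all 4 were lower in both comparisons, 1 of them with an adjusted p under 0.05 in each. The 7 neutrophil markers summed to 1612 and 1193 CPM in Ct libraries 2 and 3 and to 1266 CPM in HF library 4, and to between 131 and 587 CPM elsewhere. Of these markers 6 of 7 were lower in ECH than in Ct and 7 of 7 in HF, with a lowest adjusted p of 0.198 and 0.243. The 6 T and NK cell markers had median sums of 28.3, 7.90 and 11.1 CPM in Ct, ECH and HF, and all 6 were lower than in Ct on average in both comparisons, 3 of them at an unadjusted p under 0.05 in ECH and 1 in HF. The 6 markers of Ly6C-high monocytes had median sums of 417, 579 and 699 CPM in Ct, ECH and HF, with 4 of 6 higher in ECH and 3 of 6 in HF. The 5 fibroblast markers, with median sums of 66.6, 171 and 124 CPM in Ct, ECH and HF, were all higher on average than in Ct in both comparisons, with a lowest adjusted p of 0.452 and 0.550. The 5 cardiomyocyte markers, with median sums of 121, 97.0 and 78.6 CPM, were lower in 4 of 5 cases in ECH and 5 of 5 in HF, with a lowest adjusted p of 0.490 and 0.127. The median sums were 7650, 10022 and 8611 CPM for the 6 markers of resident cardiac Mφ. Of these, 4 were higher and 2 lower in ECH than in Ct, 1 of the lower ones with an adjusted p under 0.05. In HF 3 were higher and 3 lower than in Ct. The median sums were 167, 127 and 146 CPM for dendritic cells and 16.0, 21.2 and 14.7 CPM for endothelial cells. Over the 12 libraries, which share their groups and depth, Pearson's r with Casp4 was -0.88 for the monocyte sum, 0.80 for the B cell sum, 0.70 for the T and NK cell sum, 0.62 for the cardiomyocyte sum, -0.53 for the fibroblast sum and -0.49 for the endothelial sum. In the same order these values were -0.66, 0.57, 0.45, 0.18, -0.53 and -0.43 with Nlrp3, and -0.49, 0.36, 0.29, 0.67, -0.12 and 0.38 with Aim2. For the sums of macrophage identity, resident macrophage, neutrophil and dendritic cell markers r lay between -0.46 and 0.42 with any of these 3 genes. None of these lists had a marker at 0 in every library, and their part in the levels of the 8 genes was not tested.

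Around the 8 genes, 79 further genes of the pathway were listed by role, of which 76 could be tested, since Nlrp6, Gsdma and Gsdmc had too few counts. Only Serpinb1a in ECH versus Ct passed the test, 1 of 76 genes. No pathway gene passed in HF versus Ct or HF versus ECH (edgeR), where 17 and 9 of the 76 had an unadjusted p under 0.05 and where DESeq2 called 2 (Mefv and Ripk3) and 1 (Kcnk6). In ECH versus Ct 15 of 76 genes had an unadjusted p under 0.05. Over all genes the shares were 11.9%, 16.1% and 7.98% in ECH versus Ct, HF versus Ct and HF versus ECH. The median log2 fold change of the 76 genes was 0.02 in ECH versus Ct and 0.01 in HF versus Ct.

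Serpinb1a encodes a serine protease inhibitor that also restrains inflammatory caspases. It had 27.2, 40.4, 39.6 and 21.5 CPM in Ct, 11.5, 7.51, 7.50 and 11.2 CPM in ECH and 9.72, 19.4, 23.9 and 18.9 CPM in HF. Every ECH library was below every Ct library, as for 3.64% of all genes, and HF lay between them and overlapped with both. Serpinb1a fell by 1.77 ± 0.30 on the log2 scale in ECH versus Ct (adjusted p = 0.0218), that is to 0.293 of the Ct level. HF versus Ct (-0.84 ± 0.29, adjusted p = 0.204) and HF versus ECH (0.93 ± 0.29, adjusted p = 0.535) did not pass, and the HF versus Ct value of Serpinb1a was -0.48 in limma-voom and -0.51 without Ct library 2 and HF library 1. The adjusted p of ECH versus Ct ranged from 2.76e-06 to 0.468 over the alternatives, and ECH libraries 1 and 2 alone gave -1.77 against Ct (adjusted p = 0.468). Neutrophils and their precursors are known to express Serpinb1a strongly, and the neutrophil marker sums were 587, 1612, 1193 and 344 CPM in Ct, 279, 351, 191 and 515 CPM in ECH and 180, 131, 353 and 1266 CPM in HF. The part of neutrophils in the Serpinb1a difference was not tested.

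Of the cytokines, Il1b was by far the most abundant, with 1357, 1351, 1333 and 669 CPM in Ct, 882, 1022, 255 and 382 CPM in ECH and 553, 702, 750 and 1171 CPM in HF. The ECH group split into libraries 1 and 2, with 882 and 1022 CPM, and libraries 3 and 4, with 255 and 382 CPM. Il1b was -0.89 ± 0.40 (adjusted p = 0.400) in ECH versus Ct and -0.57 ± 0.40 (adjusted p = 0.520) in HF versus Ct. Within the inferred sets, ECH libraries 1 and 2 were at -0.31 against Ct (adjusted p = 0.951), and with the set as a covariate HF versus Ct turned to 1.01 (adjusted p = 0.320). Without Ct library 2 and HF library 1 HF versus Ct was -0.36 for Il1b. Il1a had 14.3 to 46.3 CPM in Ct, 5.87 to 67.1 CPM in ECH and 20.4 to 65.2 CPM in HF, and Il18 had 19.9 to 46.5, 25.7 to 33.7 and 27.5 to 39.3 CPM. Neither Il1a nor Il18 separated the groups.

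Il1rn, which encodes the IL-1 receptor antagonist, had 107, 124, 92.1 and 34.6 CPM in Ct, 225, 245, 75.0 and 93.9 CPM in ECH and 189, 199, 173 and 212 CPM in HF. All HF libraries were above all Ct libraries, as for 4.59% of all genes, while ECH again split into libraries 1 and 2 above Ct and libraries 3 and 4 within its range. The log2 fold change of Il1rn was 0.84 ± 0.40 (adjusted p = 0.433) in ECH versus Ct and 1.11 ± 0.40 (adjusted p = 0.213) in HF versus Ct. With the library set as a covariate these values were 1.39 (adjusted p = 0.226) and 2.59 (adjusted p = 0.0291), and without ECH library 2 the ECH value of Il1rn was 0.55. Since Il1b and Il1rn were high or low in the same ECH libraries, their ratio was computed after these values had been seen. It was 7.91, 9.18, 6.91 and 5.17 Il1rn counts per 100 Il1b counts in Ct, 25.5, 23.9, 29.4 and 24.6 in ECH and 34.2, 28.3, 23.1 and 18.1 in HF. No Ct library reached the lowest value of the infused mice, and the 4 ECH libraries, with 255 to 1022 CPM of Il1b, lay close together in the ratio. The ratio was chosen for this pattern and is given without a test. Among the 8 receptors and inhibitors of IL-1 and IL-18, 0 passed the test in any comparison, with a median log2 fold change of 0.39 in ECH versus Ct and 0.34 in HF versus Ct. Il18bp, which encodes the soluble inhibitor of IL-18, had 6.74 to 10.1 CPM in Ct, 9.25 to 20.2 CPM in ECH and 9.27 to 12.6 CPM in HF, with a log2 fold change of 0.66 ± 0.26 (adjusted p = 0.334) in ECH versus Ct, which was 0.42 without ECH library 2.

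**Figure D4:**
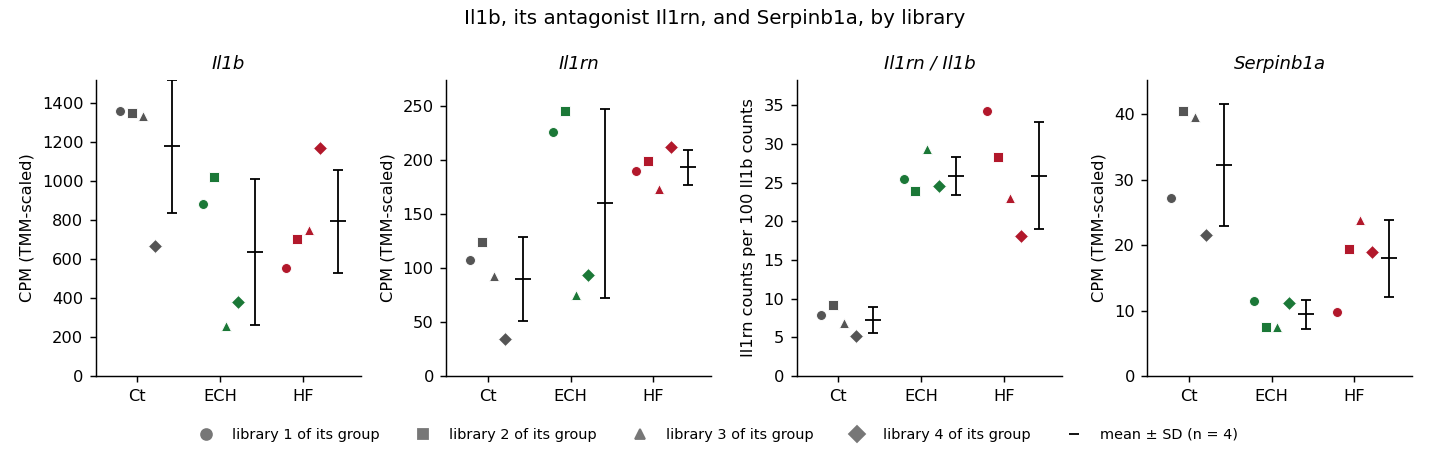
Il1b, Il1rn and Serpinb1a in CPM and Il1rn counts per 100 Il1b counts (y axes) in the Ct, ECH and HF groups (x axis), with 1 symbol per library and a bar for the mean ± SD of 4 libraries. The ratio is at most 9.18 in the Ct libraries and at least 18.1 in the libraries of infused mice, whereas Il1b overlaps between the groups.

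Of the 9 tested sensors outside the 8 genes, 0 passed the test in any comparison, and the median log2 fold change was -0.09 in ECH versus Ct and -0.24 in HF versus Ct. Mefv, which encodes pyrin, had 3.02, 2.34, 6.16 and 2.00 CPM in Ct, 8.05, 12.01, 13.9 and 9.56 CPM in ECH and 4.31, 10.1, 10.9 and 19.4 CPM in HF. Every ECH library was above every Ct library, as 4.33% of all genes were in this comparison, and HF library 1 lay within the Ct range. The log2 fold change of Mefv was 1.69 ± 0.46 (adjusted p = 0.140) in ECH and 1.73 ± 0.46 (adjusted p = 0.122) in HF, and the call depended on the tool, with an adjusted p in DESeq2 of 0.0129 and 0.00851 and, in the likelihood ratio test of edgeR, of 0.0248 and 0.0184. Naip1 was at 0.168 to 2.08 CPM over all libraries, at which HF versus ECH (-1.86 ± 0.81, adjusted p = 0.598) rested on few counts, and 20.7% of its 75-base stretches are shared with other Naip genes and pseudogenes.

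Among 16 genes of Toll-like receptor and NF-κB priming, 0 passed the test. At an unadjusted p under 0.05, 2 were higher and 3 lower in ECH versus Ct, and 0 were higher and 4 lower in HF versus Ct, where 6.03% and 5.89% of all genes were higher and lower in ECH and 7.35% and 8.72% in HF. Nfkb1, which encodes the p105 precursor of the p50 subunit, had 55.4, 74.0, 35.0 and 62.8 CPM in Ct, 28.3 to 36.3 CPM in ECH and 23.1 to 46.5 CPM in HF. Its lowest Ct library lay within both other ranges, and the log2 fold change was -0.81 ± 0.25 (adjusted p = 0.203) in ECH and -0.60 ± 0.25 (adjusted p = 0.264) in HF. The HF value of Nfkb1 was -0.28 both when the library set was a term of the fit and without Ct library 2 and HF library 1 (adjusted p = 0.837 and 0.573). Irak2, a kinase-like signal transducer of Toll-like and IL-1 receptors, had 74.4 to 117 CPM in Ct, 60.1 to 94.5 CPM in ECH and 54.2 to 59.8 CPM in HF, with all HF libraries below all others. In HF versus Ct 4.45% of all genes lay apart in this direction. The log2 fold change of Irak2 in HF versus Ct was -0.67 ± 0.17 (adjusted p = 0.0984, and 0.0083 in DESeq2), below a 2-fold change, and -0.34 (adjusted p = 0.607) with the library set as a covariate.

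Among 12 activators and regulators of NLRP3, 0 passed the test, and in HF versus Ct 3 were higher and 2 lower at an unadjusted p under 0.05, beside 7.35% and 8.72% of all genes. Ctsb, which encodes the lysosomal protease cathepsin B, had 5553, 5145, 5445 and 5744 CPM in Ct, 8760, 7379, 7244 and 6385 CPM in ECH and 7938, 8058, 8577 and 7772 CPM in HF. No library of infused mice fell within the narrow Ct range (5472 ± 250 CPM, SD, n = 4), and 4.33% of all genes in ECH and 4.59% in HF lay above Ct in this way. Ctsb was 0.44 ± 0.12 (adjusted p = 0.137) in ECH and 0.56 ± 0.12 (adjusted p = 0.0568) in HF on the log2 scale, below a 2-fold change in either case, with DESeq2 at an adjusted p of 0.00335 and 2.69e-05. Kcnk6, which encodes the potassium channel TWIK2 through which macrophages lose potassium before NLRP3 activation, had 56.8 to 88.6 CPM in Ct, 74.1 to 124 CPM in ECH and 32.8 to 64.2 CPM in HF. All HF libraries were below all ECH libraries, as 3.56% of all genes were, with a log2 fold change of -1.10 ± 0.22 (adjusted p = 0.488). In this comparison edgeR's quasi-likelihood test called 0 genes, and DESeq2 called 0.322% of all genes, Kcnk6 among them (adjusted p = 0.00303). Within ECH libraries 3 and 4 and HF the Kcnk6 value was -1.36 (adjusted p = 0.0191).

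The 10 genes of the guanylate binding protein, IRG and IRF list, which act in the caspase-11 and AIM2 arms, gave 0 calls and a median log2 fold change of -0.02 in ECH versus Ct and -0.06 in HF versus Ct. Irf1, an interferon regulatory factor that drives genes of this list, had 703, 691, 485 and 412 CPM in Ct, 157 to 535 CPM in ECH and 233 to 467 CPM in HF, with a log2 fold change of -0.77 ± 0.33 in both (adjusted p = 0.377 in ECH and 0.282 in HF). When the library set was a term of the fit, the Irf1 values were -0.38 in ECH (adjusted p = 0.837) and, with the direction turned, 0.16 in HF (adjusted p = 0.929). Irgm1 ranged from 48.8 to 100 CPM over the 12 libraries.

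Of the steps after caspase activation, Ninj1, whose product ruptures the plasma membrane after pore formation, had 506 to 680 CPM in Ct, 549 to 816 CPM in ECH and 429 to 765 CPM in HF (log2 fold change in ECH versus Ct 0.31 ± 0.19, adjusted p = 0.570). Gsdme, listed in the files under its older symbol Dfna5, had 4.76 to 7.09, 2.96 to 7.01 and 5.19 to 12.1 CPM, and HF versus ECH was 0.78 ± 0.37 (adjusted p = 0.634). This Dfna5 value was 0.47 without HF library 3 and 1.23 within the library set (adjusted p = 0.166). The 5 genes of ESCRT-III membrane repair, which removes gasdermin pores, gave 0 calls. Vps4b, an ATPase of this machinery, was higher in every ECH library (185 to 207 CPM) than in every Ct library (142 to 182 CPM), as 4.33% of all genes were, with a log2 fold change of 0.27 ± 0.13 (adjusted p = 0.429), and Chmp2a in HF (158 to 173 CPM) lay above all ECH libraries (109 to 149 CPM), as for 3.36% of all genes, with 0.31 ± 0.16 (adjusted p = 0.670). Within the library set the Chmp2a value was 0.48 (adjusted p = 0.0453). Among 11 other caspases and inhibitors of cell death, Ripk3, the kinase of necroptosis, had 12.5, 2.41, 13.6 and 12.5 CPM in Ct, 24.1, 25.1, 13.6 and 9.38 CPM in ECH and 25.2, 27.1, 27.9 and 46.3 CPM in HF. All HF libraries were above all others (4.59% of all genes lay above Ct in this way), and the log2 fold change of Ripk3 in HF versus Ct was 1.63 ± 0.47 (adjusted p = 0.143), with DESeq2 at an adjusted p of 0.0132 and a value of 2.72 (adjusted p = 0.0906) with the library set as a covariate.

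**Figure D5:**
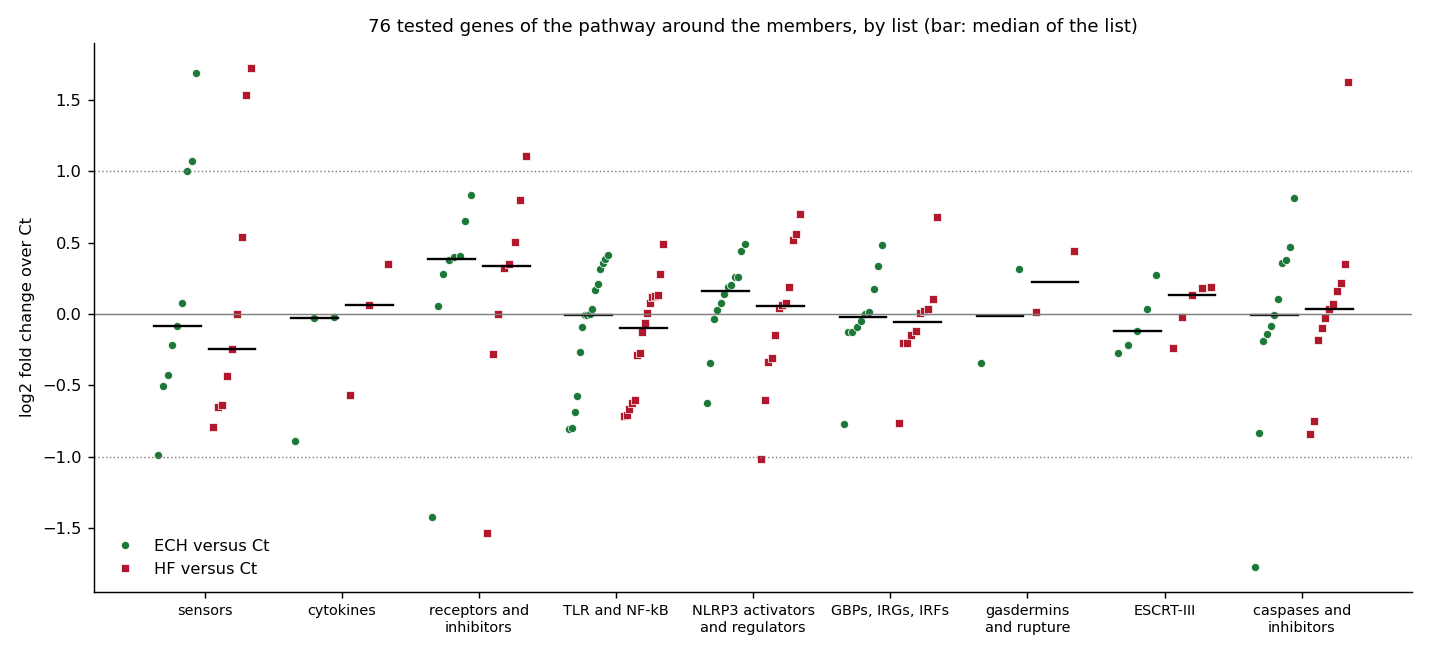
Log2 fold change over Ct (y axis) of the 76 tested pathway genes, grouped by list (x axis), with circles for ECH, squares for HF and a bar for the median of each list. The list medians lie between -0.24 and 0.39, and the single called gene, Serpinb1a in ECH, is the lowest circle at -1.77.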

How the data were processed

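RNA of sorted cardiac Mφ was amplified with SMART-Seq v4 and sequenced as paired reads on a NextSeq 500. The authors deposited 1 table of whole-number counts per library, made with FastQC, Trimmomatic, TopHat2 against mm10 and featureCounts (versions are not named in the sources). The counts are not normalized. Here they were scaled by TMM to counts per 1000000 (CPM) and fitted in 1 quasi-likelihood model over all 12 libraries with edgeR 4.0.16 (R 4.3.3), after filterByExpr had left 14608 of 24445 genes. The Benjamini-Hochberg adjustment ran over these genes, and a gene was called at an adjusted p under 0.05 and a fold of at least 2, as in the study. Intervals are 95%.

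Alternatives were DESeq2 1.42.0, the likelihood ratio test, limma-voom (limma 3.58.1), other scaling and filters, fits of both groups only, the replicate number or inferred library set as a term, and leaving out each library. The fit without Ct library 2 and HF library 1 was added after the data were seen. The scripts were tested on simulated data. Of the pathway genes, Il1a, Il1b, Il18, Il1rn and Il18bp and the gene with the lowest p of each list in each comparison were named. The 8 genes and all lists were chosen with earlier results of these data known. Genes with exactly 2 counts outnumbered those with 1 or with 3 in every library. Positions and lengths are from GENCODE M21 (GRCm38), promoters from RefSeq (GRCm38.p6). Of the genes most similar in pattern to Gsdmd, 1 is not reported here.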

Additional observations from a re-analysis of the deposited data

Results flagged for a closer look

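In 5 of 81 groups of 4 libraries tested, 1 library lay farther from the others than the 95% critical value of Dixon's test allows, where chance alone flags 4.05 groups. Casp1 was at 166 CPM in HF library 1 and at 107 to 115 CPM in the other HF libraries, and this library also held 188 genes at 0 that had at least 100 counts in the rest of its group. Il1b was at 669 CPM in Ct library 4 and at 1333 to 1357 CPM in the other Ct libraries. Il18 was at 39.3 CPM in HF library 3, against 27.5 to 29.1 CPM. Ripk3 was at 2.41 CPM in Ct library 2, which stood apart as well, against 12.5 to 13.6 CPM, and at 46.3 CPM in HF library 4, against 25.2 to 27.9 CPM.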

How the results depend on the processing

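None of the 8 genes was called under any alternative run, and the lowest adjusted p was 0.075 (Aim2, HF versus Ct, limma-voom). Of 544 alternative log2 fold changes of the 8 genes, 47 changed sign, all of them in comparisons without a call. With the library set as a term, Nlrp3 was 0.002 in HF versus Ct and 0.26 in HF versus ECH, Nek7 -0.12 and Pycard 0.018 in ECH versus Ct, Casp1 -0.066 and Gsdmd 0.0019 in HF versus Ct, Casp4 0.075 in HF versus ECH, and Il1b 1.01 and Irf1 0.16 in HF versus Ct. Within library sets, Nlrp3 was 0.26 and Casp4 0.077 in HF versus ECH, and Nek7 -0.13 and Pycard 0.012 in ECH versus Ct. HF versus Ct could not be computed within sets. In limma-voom, Nek7 was -0.080, Pycard 0.22 and Gsdmd 0.0035 in ECH versus Ct, and Casp1 -0.080 and Gsdmd 0.053 in HF versus Ct. Without Ct library 2 and HF library 1, chosen after the data were seen, Nek7 was -0.057 and Pycard 0.16 in ECH versus Ct and Casp1 -0.13 in HF versus Ct. Leaving out 1 library gave ranges that crossed 0. In ECH versus Ct they were -0.060 to 0.17 for Nek7, -0.18 to 0.17 for Pycard and -0.093 to 0.039 for Gsdmd. In HF versus Ct they were -0.41 to 0.11 for Nlrc4, -0.20 to 0.028 for Nek7, -0.15 to 0.088 for Casp1 and -0.086 to 0.047 for Gsdmd. In HF versus ECH they were -0.36 to 0.075 for Nlrp3, -0.18 to 0.18 for Casp4 and -0.05 to 0.073 for Gsdmd. Without crossing 0, values moved by over 1.5 times for Nlrc4 (0.24 to 0.67) and Aim2 (-0.46 to -0.13) in ECH versus Ct, for Pycard in HF versus Ct (0.084 to 0.43), and in HF versus ECH for Nlrc4 (-0.86 to -0.42), Aim2 (-0.49 to -0.23), Nek7 (-0.22 to -0.076), Pycard (0.15 to 0.33) and Casp1 (0.087 to 0.32).

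Calls among the 76 pathway genes depended on the test. In ECH versus Ct, DESeq2 and the likelihood ratio test each called 2 (Mefv and Serpinb1a) instead of 1. The library set as a term, the fit of both groups only and the within-set fit called 0, as did leaving out Ct library 1, ECH library 3 or ECH library 4 (adjusted p of Serpinb1a 0.0645, 0.112 and 0.0521), so that leaving out 1 library gave 0 to 1. In HF versus Ct, where 0 were called, DESeq2 and the likelihood ratio test called 2 (Mefv and Ripk3), the library set as a term 1 (Il1rn), and leaving out 1 library 0 to 1 (Mefv, without Ct library 3). In HF versus ECH, with 0 calls, DESeq2 and the likelihood ratio test called 1 (Kcnk6), the library set as a term 2 (Hsp90ab1 and Kcnk6) and the within-set fit 4 (Hsp90ab1, Il1rn, Kcnk6 and Ripk3). The replicate numbers of the groups share only a number, with correlations of deviations between -0.108 and 0.0957. With them as a replicate block, 0 pathway genes were called in ECH versus Ct (adjusted p of Serpinb1a 0.0796), and no call among the 8 genes changed. The cause of these changes was not tested. Shares of all genes called were computed only for the quasi-likelihood test and DESeq2. The pathway counts under the other fits thus have no rate beside them and are not a result about the pathway. The biological coefficient of variation was 60.8% with 4 libraries a group, and depth was not varied.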

Other observations

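Among pathway genes outside the naming rule, the following were chosen after their values had been seen and are given without a test. Xiap, which encodes an inhibitor of apoptotic caspases, had 26.7, 52.0, 23.4 and 40.7 CPM in Ct, 18.3, 17.8, 22.7 and 21.2 CPM in ECH and 19.96, 20.2, 23.3 and 21.2 CPM in HF. All 8 libraries of infused mice lay below the lowest Ct library, the closest by a small margin. In this direction 3.64% of all genes lay apart in ECH versus Ct and 4.45% in HF versus Ct. Panx1, which encodes a channel that releases ATP, had 9.89, 7.27, 9.86 and 9.63 CPM in Ct, 12.4, 8.97, 12.2 and 10.3 CPM in ECH and 16.1, 12.4, 15.3 and 15.9 CPM in HF. The HF libraries lay above all Ct libraries, as for 4.59% of all genes. Casp1 counts per 100 Casp4 counts, from neighbouring genes, were 142, 119, 194 and 232 in Ct, 159, 317, 288 and 236 in ECH and 291, 201, 346 and 362 in HF, and these groups overlapped.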
